A study of Rattus norvegicus with 9 samples.

Results

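The genes described here encode 7 hypothalamic neuropeptides other than vasopressin and oxytocin. They were chosen by their Ensembl rat gene IDs, 7 of the 34784 rows of the deposited count table: Crh (ENSRNOG00000012703), Trh (ENSRNOG00000012789), Sst (ENSRNOG00000001837), Pomc (ENSRNOG00000012686), Npy (ENSRNOG00000009768), Gal (ENSRNOG00000015156) and Cartpt (ENSRNOG00000017712). Their levels were measured by bulk RNA sequencing in hypothalamic tissue from rats of the S-D strain, taken so as to contain the supraoptic and paraventricular nuclei. The 9 libraries form 3 groups of 3, namely Control, PEL_1d (1 d after PEL surgery) and PEL_7d (7 d after it). In the published study PEL is an electrical lesion of the pituitary stalk, which damages the axons that run from these nuclei to the posterior pituitary, and the series asks how gene expression changes after such an injury in a model of central diabetes insipidus. What was done to the Control animals, when their tissue was taken and the animals' age are not stated in the labels. Nor do the labels say whether each library came from a separate animal. The p-values below therefore rest on the spread among libraries, which may be technical.

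Neuropeptides are cut from larger precursor proteins, packed into dense-core vesicles and released from nerve endings. Corticotropin-releasing hormone (Crh), thyrotropin-releasing hormone (Trh) and somatostatin (Sst) reach the anterior pituitary through the portal blood and set the release of corticotropin, thyrotropin and growth hormone. Galanin (Gal) is made by vasopressin neurons among others, while Pomc, Cartpt and Npy are best known from neurons of the arcuate nucleus that control feeding. In bulk tissue, fewer cells of a type and less RNA per cell cannot be told apart.

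The gene names are those that came with the IDs. The count table gives IDs only, and the RefSeq gene table used here held an Ensembl ID in 0 of its 47357 rows, so the pairing of name and ID could not be checked, and markers of neurons, of the nuclei, of the pituitary or of glia could not be looked up. Total counts per library ranged from 13338433 to 21012998. Levels are given as CPM, the counts of a gene per 1000000 counts, on TMM-scaled library sizes, which are not corrected for gene length, so each gene is compared only with itself across libraries. A gene was called changed at a Benjamini-Hochberg adjusted p below 0.05 in edgeR's quasi-likelihood test, adjusted over all 17345 genes tested. Of the 7 genes, 6 passed the filter on low counts that precedes this test and Npy did not.

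Gal and Crh were higher 7 d after the lesion than 1 d after it, by 2.59-fold and 2.11-fold. They were the 2 of 6 tested genes called between these times, where 29.2% of all tested genes were called. Of the 6 tested genes 0 were called by edgeR at 1 d against Control, where 20.4% of all tested genes were called, and 0 at 7 d against Control, where 1.02% were. At 7 d Gal and Crh stood at 2.67 and 2.45 times the Control level, with all 3 libraries of 7 d above all 3 of Control. Cartpt stood at 0.732 and 0.638 times its Control level at 1 d and 7 d, and neither difference passed the test. Trh and Sst varied up to 2.29-fold and 2.99-fold between libraries of the same group, Pomc was high in 2 of the 9 libraries, and the row named Npy was nearly without counts.

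**Figure D1:**
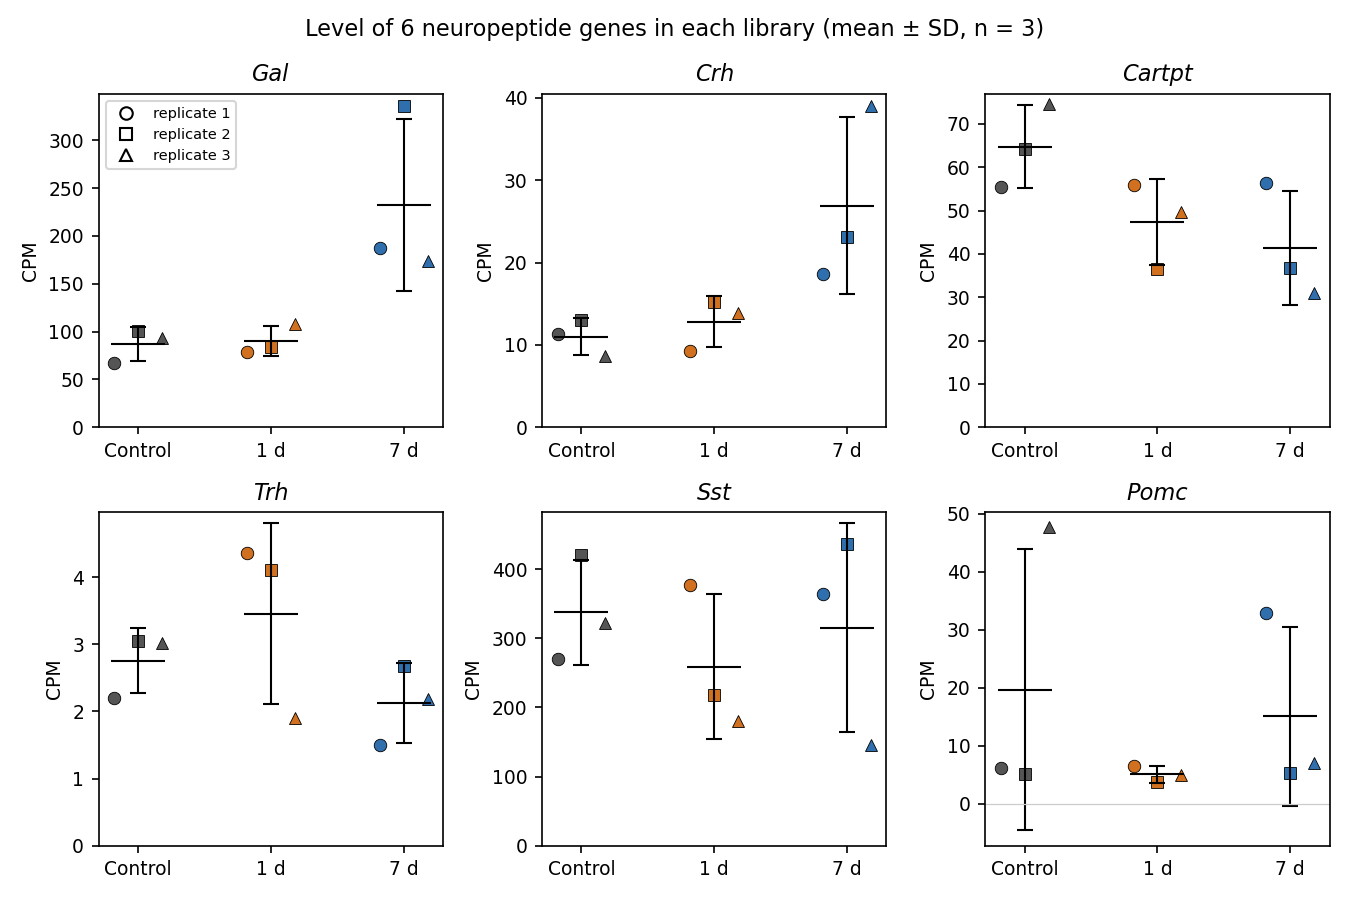
CPM (vertical axis, linear) of 6 genes in the 9 libraries by group, with the symbol giving the replicate number and the bars the mean ± SD of 3 libraries; where the SD exceeds the mean, as for Pomc in Control, the bar runs below 0. The 7 d libraries lie above the other 6 for Gal and Crh, and for Pomc 1 Control and 1 library of 7 d stand apart.

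Gal encodes the precursor of galanin, a peptide that magnocellular neurons store together with vasopressin. It stood at 67.0, 101 and 93.4 CPM in Control replicates 1, 2 and 3, at 78.1, 83.6 and 108 CPM at 1 d, and at 187, 335 and 174 CPM at 7 d. The Control and 1 d libraries overlapped, and the lowest library of 7 d was above the highest of the other 6. Control libraries averaged 87.0 ± 17.7 CPM, those of 1 d 89.8 ± 15.7 CPM and those of 7 d 232 ± 89.7 CPM (mean ± SD, n = 3 per group). The spread at 7 d came mostly from replicate 2, whose level was 1.93 times that of replicate 3.

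From 1 d to 7 d Gal rose 2.59-fold (log2 fold change 1.37 with SE 0.29, edgeR adjusted p = 0.0111), with a 95% interval of 1.63 to 4.10. At 7 d against Control the log2 fold change was 1.41 (SE 0.29), a ratio of 2.67 with an interval of 1.68 to 4.23, and its edgeR adjusted p of 0.0788 missed the threshold. DESeq2 did call this difference (log2 fold change 1.41, adjusted p = 0.000902). The adjusted p ranged from 0.000902 to 0.248 over 20 alternatives, of which DESeq2's was the only one below the threshold. At 1 d against Control the log2 fold change was 0.04 (edgeR adjusted p = 0.933), and the interval of the ratio ran from 0.652 to 1.63. The rise from 1 d to 7 d was called in all 20 alternatives tried, which included leaving out each library in turn. Its log2 fold change lay between 1.01, without 7 d replicate 2, and 1.54, and its adjusted p between 0.000179 and 0.0417.

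Crh encodes corticotropin-releasing hormone, the peptide of parvocellular paraventricular neurons that drives the pituitary-adrenal axis. Its level was 11.3, 13.1 and 8.59 CPM in Control replicates 1 to 3, 9.29, 15.2 and 13.9 CPM at 1 d, and 18.6, 23.1 and 39.0 CPM at 7 d. As for Gal, Control and 1 d overlapped while all 3 libraries of 7 d were above the other 6. The lowest library of 7 d, replicate 1, exceeded the highest library of 1 d by less than the libraries of 7 d differed among themselves, and replicate 3 was the highest. Group means were 11.0 ± 2.25 CPM, 12.8 ± 3.10 CPM and 26.9 ± 10.7 CPM (mean ± SD, n = 3 per group).

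Between 1 d and 7 d Crh rose 2.11-fold (log2 fold change 1.08 with SE 0.30, edgeR adjusted p = 0.0257), with a 95% interval of 1.32 to 3.36. Against Control the log2 fold change at 7 d was 1.30 (SE 0.30, edgeR adjusted p = 0.0947), a ratio of 2.45 with an interval of 1.54 to 3.92. As with Gal, DESeq2 was the only one of 20 alternatives to call it (log2 fold change 1.29, adjusted p = 0.00079; range 0.00079 to 0.231). At 1 d the log2 fold change from Control was 0.22 (adjusted p = 0.643), with a ratio between 0.727 and 1.86. The call of Crh between the times was kept in 6 of the 9 fits that left out 1 library, against 9 of 9 for Gal. It was lost without 1 d replicate 1 (log2 fold change 0.90, adjusted p = 0.080), without 1 d replicate 3 (1.15, adjusted p = 0.0573) and without 7 d replicate 3 (0.71, adjusted p = 0.0691). It was also lost in a fit of 7 d and 1 d alone (1.05, adjusted p = 0.0696). In the other 16 of 20 alternatives it was kept, and over all of them the log2 fold change lay between 0.71 and 1.30 and the adjusted p between 0.00151 and 0.080.

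**Figure D2:**
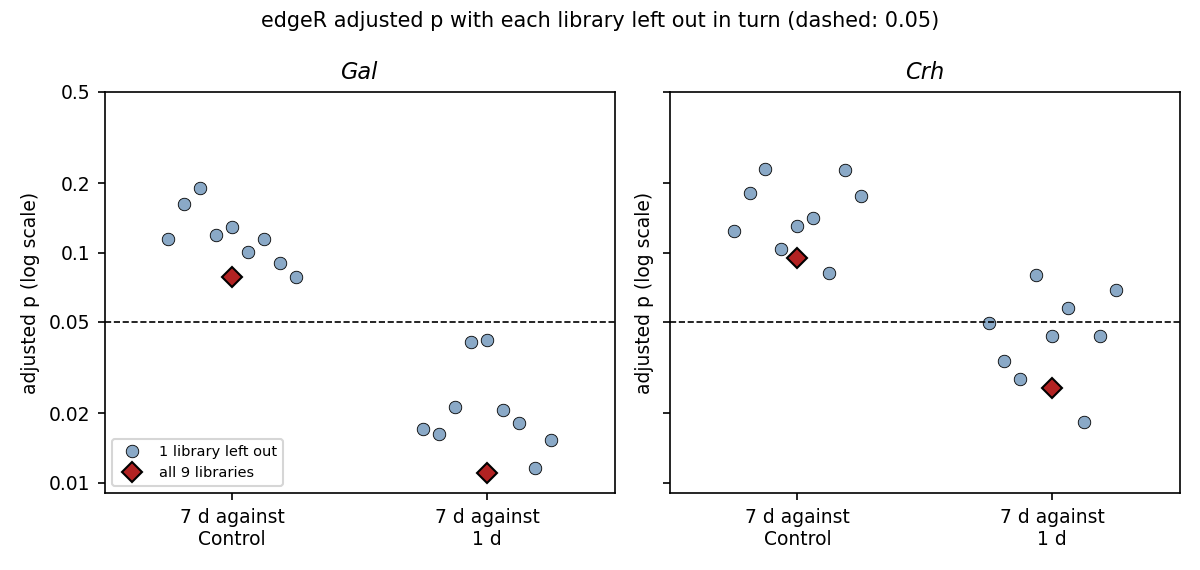
edgeR adjusted p (vertical axis, log scale) of Gal and Crh at 7 d, against Control on the left of each panel and against 1 d on the right, with all 9 libraries (diamonds) and with each of the 9 libraries left out in turn (circles); the dashed line marks 0.05. Against Control every circle lies above the line for both genes, and between the times every circle of Gal and 6 of 9 of Crh lie below it.

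These 2 genes were the only ones of the 6 called between 1 d and 7 d, a comparison in which 29.2% of all tested genes were called and 13.4% were called higher. At 2 of 6 the count is close to the first of these shares. DESeq2 called the same 2, of the 5 genes to which it gave an adjusted p (Pomc had none), with 30.2% of all genes called. Both were also the only ones whose libraries of 7 d and 1 d did not overlap, against 24.6% of all genes not overlapping in the upward direction. At 7 d against Control 0 of the 6 were called by edgeR, against a background of 1.02%, and 3 of 6 (Gal, Crh and Cartpt) had an unadjusted p below 0.05, against 12.3% of all genes. DESeq2 called 2 of the 5 genes to which it gave an adjusted p there, Gal and Crh, with a background of 3.03%, and limma-voom 0. Gal and Crh were the 2 of 6 whose 7 d libraries all lay above Control, a pattern found in 8.85% of all genes. Their comparisons with Control and with 1 d share the libraries of 7 d, so the 2 sets of values are not independent of each other.

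The 2 genes did not follow each other library by library. Within 7 d, Gal was highest in replicate 2 and Crh in replicate 3, which had the lowest Gal level of that group. Pearson's r of log2 CPM between them over the 9 libraries was 0.73, a value that 535 of the other 17344 tested genes exceeded in their likeness to Gal. With each library expressed as its deviation from its group's mean, r was -0.10. These values describe the 9 libraries, which share 3 groups, and are given without a test.

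Promoter sequence is shown for Gal, as the called gene with an entry in the RefSeq promoter table, and for Cartpt, as the gene whose window holds a complete cAMP response element, a site that Jun and Atf proteins, named in the series' title, can bind. Of the 7 genes, 6 had an entry, matched by symbol, and Crh had none. Each run below is the 250 bases before the annotated start, 5′ to 3′ on the gene's strand in build GRCr8, at chr1:210084573-210084822 (minus strand) for Gal and chr2:32991236-32991485 (minus strand) for Cartpt. Capitals mark TGACGTCA, TGACG where it stands outside that longer site, and TATAAA.
Gal: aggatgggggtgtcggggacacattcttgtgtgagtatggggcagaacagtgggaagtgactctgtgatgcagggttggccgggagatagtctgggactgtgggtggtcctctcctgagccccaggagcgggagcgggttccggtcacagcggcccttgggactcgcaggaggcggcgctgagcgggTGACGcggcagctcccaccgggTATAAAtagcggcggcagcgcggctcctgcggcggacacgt
Cartpt: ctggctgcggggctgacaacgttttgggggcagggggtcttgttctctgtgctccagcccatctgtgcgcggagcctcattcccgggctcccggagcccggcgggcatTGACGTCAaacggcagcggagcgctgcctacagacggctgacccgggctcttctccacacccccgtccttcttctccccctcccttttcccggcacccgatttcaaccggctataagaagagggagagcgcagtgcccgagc

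The search covered TGACGTCA, the cAMP response element, which reads the same on both strands and contains TGACG on each. It also covered TGACG and the AP-1 element TGANTCA on both strands, and the TATA box TATAAA on the gene's strand. In the Cartpt window the cAMP response element lay 142 to 135 bases before the start. TGACGTCA was found in 1 of the 6 windows of these genes and in 1.59% of all 33469 windows of the same length. In the Gal window TGACG lay 63 to 59 bases and TATAAA 41 to 36 bases before the start. TGACG occurred in 3 of the 6 windows, those of Trh, Gal and Cartpt, and in 18.2% of all windows. TATAAA occurred in the windows of Pomc and Gal, 2 of 6, against 8.06% of all windows, and TGANTCA in 0 of 6, against 6.34%. The windows of Sst and Npy held no match to any of these motifs. Bases past the annotated start were not searched, so a window without a match, as for Sst, does not show that the gene lacks the site. A match describes letters in the window and is neither a measured site nor a cause of these levels.

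Cartpt encodes the precursor of the CART peptides, made in the paraventricular, supraoptic and arcuate nuclei and known for reducing food intake. Control replicates 1 to 3 had 55.5, 64.1 and 74.7 CPM, those of 1 d 56.0, 36.6 and 49.6 CPM, and those of 7 d 56.3, 36.7 and 31.1 CPM. In each lesion group 1 library, replicate 1 in both cases, reached into the Control range, and the other 2 were below all Control libraries. Control libraries averaged 64.8 ± 9.62 CPM, those of 1 d 47.4 ± 9.90 CPM and those of 7 d 41.3 ± 13.2 CPM (mean ± SD, n = 3 per group). The log2 fold change from Control was -0.45 at 1 d (SE 0.24, edgeR adjusted p = 0.212) and -0.65 at 7 d (SE 0.24, adjusted p = 0.308). The ratio to Control at 7 d was 0.638 with a 95% interval of 0.438 to 0.931, which leaves out 1 although the adjusted p misses the threshold. At 1 d the ratio was 0.732 (0.503 to 1.07), and between the times the log2 fold change was -0.20 (adjusted p = 0.58). In 20 alternatives each of these differences kept its negative sign and none was called.

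Cartpt was low in the libraries with much Crh. Over the 9 libraries r of log2 CPM between these genes was -0.82, and as deviations from group means it was -0.83. Within Control the library with the most Cartpt, replicate 3, had the least Crh. In 7 d the order of the 3 libraries was reversed between the 2 genes, and so it was at 1 d. Crh ran against other genes of the set too, with an r of deviations of -0.73 with Sst and -0.68 with Pomc. Over the 9 libraries, without removing group means, these values were weaker, at -0.41 and -0.21. The value with Pomc includes Control replicate 3 and 7 d replicate 1, which were high in Pomc and had the least Crh of their groups. These pairs were singled out from the 15 pairs of the 6 genes after their values were seen, and are given without a test.

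**Figure D3:**
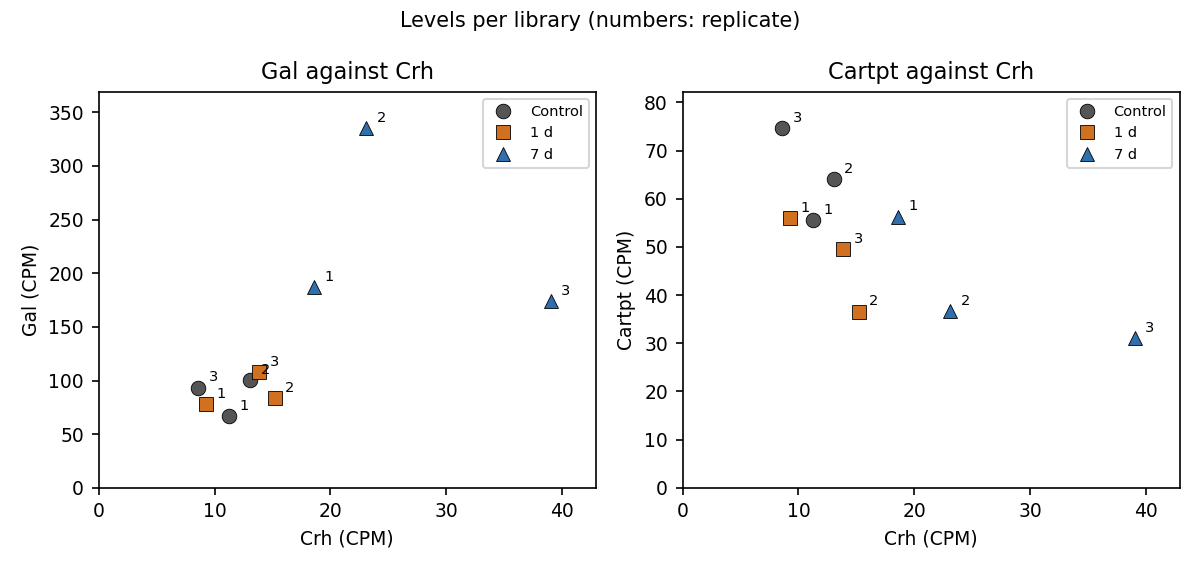
Levels in CPM of Gal (left) and Cartpt (right) on the vertical axes against Crh on the horizontal axes, 1 point per library with its replicate number. Gal is highest in 7 d replicate 2 and Crh in 7 d replicate 3, which has the lowest Cartpt level of the 9 libraries.

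Trh encodes the precursor of thyrotropin-releasing hormone, which paraventricular neurons release to drive the pituitary-thyroid axis. Its counts were the lowest of the tested genes here, between 27 and 78 per library. Control replicates 1 to 3 had 2.20, 3.05 and 3.02 CPM, while the replicates of 1 d had 4.37, 4.10 and 1.91 CPM and those of 7 d 1.497, 2.68 and 2.19 CPM. At 1 d replicates 1 and 2 were the 2 highest of all 9 libraries while replicate 3 was below all Control libraries. The log2 fold change was 0.33 at 1 d against Control (SE 0.34, edgeR adjusted p = 0.516) and -0.38 at 7 d (SE 0.34, adjusted p = 0.715). Between the times it was -0.71 (SE 0.34, adjusted p = 0.148), a ratio of 0.611 with a 95% interval of 0.361 to 1.03. Without 1 d replicate 3 the difference between the times was called (log2 fold change -0.99, adjusted p = 0.0395), the only one of 20 alternatives to do so (adjusted p 0.0395 to 0.401).

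Sst encodes somatostatin, which periventricular neurons release to restrain growth hormone and which many inhibitory neurons of the forebrain also make. Levels in replicates 1 to 3 were 270.2, 420.2 and 322 CPM for Control, 378, 218 and 180.4 CPM for 1 d, and 364, 437 and 146 CPM for 7 d. All 3 groups overlapped, and the highest library of a group was 1.56 times the lowest in Control, 2.09 times at 1 d and 2.99 times at 7 d. The log2 fold change was -0.38 at 1 d against Control (SE 0.46, edgeR adjusted p = 0.594), -0.10 at 7 d against Control (SE 0.45, adjusted p = 0.962) and 0.29 between the times (SE 0.46, adjusted p = 0.684). The 95% intervals of these ratios were 0.362 to 1.62, 0.442 to 1.97 and 0.576 to 2.58, which all include a 1.5-fold change in either direction. The limit here was the spread between libraries and not the depth, as each library held at least 2552 counts of Sst. Library 7 d replicate 3, which had the lowest Sst and Cartpt levels of all 9, also had the highest Crh level.

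Pomc encodes the precursor of melanocortins, beta-endorphin and corticotropin, and is made by arcuate neurons and, in large amounts, by cells of the pituitary. It stood at 47.7 CPM in Control replicate 3 and 32.9 CPM in 7 d replicate 1. The other 7 libraries lay between 3.72 and 7.12 CPM, namely 6.13 and 5.20 CPM in Control replicates 1 and 2, 6.60, 3.72 and 4.95 CPM in the replicates of 1 d, and 5.30 and 7.12 CPM in 7 d replicates 2 and 3. The 2 high libraries belong to different groups, and the remaining libraries of all 3 groups overlapped.

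No difference in Pomc between groups was called. Its log2 fold change was -1.95 at 1 d against Control (SE 1.12, edgeR adjusted p = 0.265), -0.38 at 7 d against Control (SE 1.05, adjusted p = 0.932) and 1.57 between the times (SE 1.12, adjusted p = 0.347). The values turned on the 2 high libraries. Without Control replicate 3 the log2 fold change at 1 d was -0.16, and that at 7 d was 1.42. Without 7 d replicate 1 the latter was -1.67, and without both libraries it was 0.14 (adjusted p 0.616 to 0.999 over the alternatives with a p). The difference between the times was 0.28 without 7 d replicate 1 and 0.30 without both. Whether arcuate or pituitary tissue was included to a different extent in these libraries was not tested, because lists of markers of those cells could not be matched to IDs. Within the set, Cartpt was the highest of its group in both of these libraries, at 74.7 CPM in Control replicate 3 and 56.3 CPM in 7 d replicate 1, and r of log2 CPM between Pomc and Cartpt, as deviations from group means over the 9 libraries, was 0.75. This r includes the 2 high libraries, was picked after the values were seen and is given without a test. Without these 2 libraries Gal and Crh were still called between 1 d and 7 d (log2 fold changes 1.52 and 1.30, edgeR adjusted p = 0.0321 and 0.0135), and neither was called against Control.

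Npy encodes neuropeptide Y, a feeding-stimulating peptide of arcuate neurons that is also widespread in inhibitory neurons of the forebrain. The row with its ID held 2 counts, both in 7 d replicate 1, and 0 in the other 8 libraries. A count of 0 allows up to 3 counts, which corresponds to 0.142 to 0.212 CPM in these libraries and covers counting error only. All 3 groups were at or under that floor, so no fold change is given. Without the filter on low counts, edgeR's adjusted p for this row was 1 at 1 d against Control, 0.758 at 7 d against Control and 0.479 between the times, over 24996 genes. Whether reads of this gene were counted under another row was not tested, and the name could not be checked, so this row is not a measurement of low Npy expression in the tissue.

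**Figure D4:**
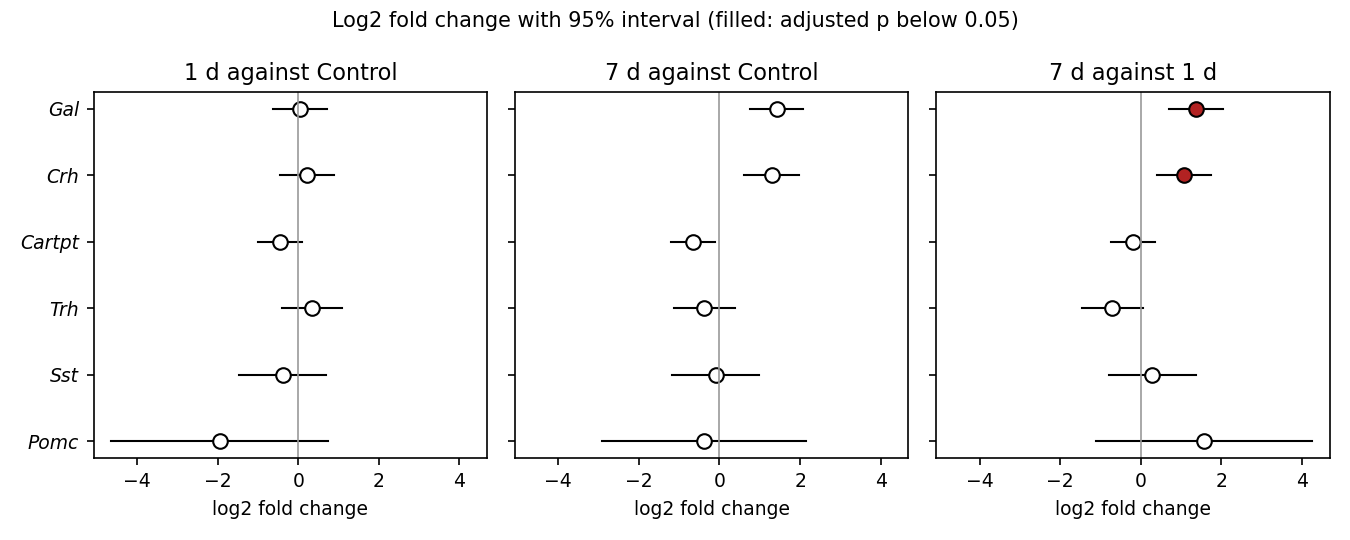
Log2 fold change (horizontal axis) with its 95% interval for 6 genes in the 3 comparisons; filled circles have an edgeR adjusted p below 0.05. Only Gal and Crh for 7 d against 1 d are filled, and the interval of Pomc is the widest in each panel.

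At 1 d no gene of the set was called different from Control. In that comparison 0 of the 6 genes were called by edgeR, while 20.4% of all tested genes were called. An unadjusted p below 0.05 was found for 0 of 6 as well, against 35.8% of all genes. DESeq2 called 0 of the 5 genes to which it gave an adjusted p there, with 23.4% of all genes called, and limma-voom 0 of 6. The 1 d and Control libraries overlapped in all 6 genes, while 39.7% of all genes showed no overlap in 1 direction or the other. The 95% interval of the ratio at 1 d still ran from 0.652 to 1.63 for Gal and from 0.727 to 1.86 for Crh. All 6 genes also had a within-group SD above the median of all genes. A gene not called is therefore not shown to be unchanged, and 6 genes are too few to set the group apart from all genes. The median log2 fold change of the 6 genes that passed the filter was -0.17 at 1 d, against -0.02 over all tested genes. It was -0.24 at 7 d against Control, where all genes had -0.01, and 0.68 between the times, where all genes had 0.03. In each case the median joins genes of opposite sign.

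Libraries of the same group differed in these genes more than in most others. The pooled within-group SD of log2 CPM was 1.32 for Pomc, 0.61 for Sst, 0.46 for Trh, 0.42 for Crh, 0.38 for Gal and 0.34 for Cartpt. The median over all 17345 genes was 0.19. The share of tested genes with a smaller SD was 98.8% for Pomc and 91.6% for Sst, and the lowest of the 6, for Cartpt, was 74.7%. This SD uses no difference between groups. In genes with few counts, such as Trh, it also contains counting error.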

How the data were processed

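The authors deposited raw whole-number counts per gene for 9 libraries, with no normalization. The submitters' processing notes name HISAT2 (2.0.5), DESeq2 (1.16.1) and featureCounts (1.5.0-p3). Build, annotation and strandedness of the counting: not given in the sources used here, so overlapping or antisense genes may share reads. Libraries were grouped by their titles. Genes were filtered with edgeR's filterByExpr, which left 17345 of 34784 rows, scaled by TMM factors and tested in 1 fit of all libraries (glmQLFit, robust, and glmQLFTest; two-sided, Benjamini-Hochberg adjusted over all genes tested). Software was DESeq2 1.42.0, limma 3.58.1 and edgeR 4.0.16 under R 4.3.3. SEs are the absolute log2 fold change over the square root of F, and 95% intervals use the fit's total degrees of freedom. Log2 CPM used a prior count of 2. The test was also run on simulated counts, in which far fewer genes were changed than were called in the comparisons that include 1 d. That run does not measure the error rate in these data. Replicate libraries differed beyond sampling noise (chi-square over degrees of freedom 6.80 to 38.1). Alternatives were other scalings, filters and tests, the compared groups only, a replicate block and leaving out each library, and, chosen after the data were seen, cyclic loess normalization and leaving out the 2 libraries with the highest Pomc count. All 7 genes were named by rule. The gene lists planned for receptors, peptide processing and cell types were not used, because no symbol was matched. The members and lists were chosen with earlier results of these data known.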

Additional observations from a re-analysis of the deposited data

Results flagged for a closer look

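Gal and Crh are listed here because they were called in the direct test of 7 d against 1 d. The same Control group serves both times, so this test compares the lesion groups only. The difference was a log2 fold change of 1.37 for Gal (edgeR adjusted p = 0.0111, all 3 libraries of 7 d above all 3 of 1 d) and 1.08 for Crh (adjusted p = 0.0257, likewise 3 of 3). Gal's call was kept in all 20 alternatives, whereas that of Crh was lost in 4 of 20, 3 of which left out a library. The 2 calls stand against 29.2% of all genes called in the same comparison.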

How the results depend on the processing

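Of 357 values of single genes under the alternatives, 342 kept their direction and their side of the threshold, 4 lost a call (all Crh, 7 d against 1 d), 3 gained one and 8 changed sign. No call changed sign: all 8 were differences not called. The sign changed when a library was left out in 4 differences. Gal at 1 d against Control ran from -0.11 (Control replicate 1 left out; -0.10 with 1 d replicate 3 left out) to 0.16. Sst at 7 d against Control ran from -0.41 to 0.24 (7 d replicate 3 left out; 0.09 with Control replicate 2 left out), and between the times from -0.023 (7 d replicate 2 left out) to 0.68. Pomc at 7 d against Control ran from -1.67 to 1.42 (Control replicate 3 left out; 0.02 with 7 d replicate 2 left out) and was 0.14 without the 2 libraries highest in Pomc. The cause was not tested. The number of genes called among the 6 was 2 at 7 d against Control by DESeq2, 1 for 7 d against 1 d in a fit of those groups alone, and 1 to 2 for that comparison when each library was left out; without 1 d replicate 3 the 2 calls were Gal, higher, and Trh, lower. Leaving out any library gave 0 calls in both comparisons with Control. DESeq2 gave Pomc no adjusted p. The background itself moved: over all genes 7 (without Control replicate 2) to 739 (without Control replicate 1) were called at 7 d against Control, against 177 with all, 523 by DESeq2, 28 in a fit of those groups alone, 74 with the replicate block and 20 without the 2 libraries highest in Pomc. It ranged from 1440 to 4595 at 1 d against Control (3540 with all libraries, 2066 in the fit of those groups alone) and from 3071 to 6070 between the times (5069 with all libraries, 5890 in the fit of those groups alone, where Crh lost its call). With the replicate number as a block the number of calls among the 6 was 0, 0 and 2, as without it, and same-numbered libraries did not deviate together (r -0.15 to 0.04 over the 9 same-numbered pairs), so the numbers were not taken as pairing. Spread between libraries limits Sst and Pomc, and Npy had too few counts to compare; for Trh, with 27 to 78 counts per library, counting error and spread were not separated.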
